A study of Mus musculus with 6 samples.

Results

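Purkinje cells are the output neurons of the cerebellar cortex, and the genes described here act in their slow glutamate response and in the handling of the calcium that response releases. The chosen genes are Homer3, Plcb3, Plcb4, Itpr1, Ryr1, Atp2a3 and Atp2b2, taken as every probe set whose only gene symbol in the array annotation is one of these names. A probe set is the group of short oligonucleotides on the array that together read 1 transcript. Of the 7 genes, 5 had such a probe set, and they held 7 of the 12422 probe sets tested: 3 for Atp2a3 and 1 each for Homer3, Plcb3, Ryr1 and Atp2b2. Itpr1 and Plcb4 were not analysed here.

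Cerebella of mice at postnatal day 11 were each measured on 1 array of the Affymetrix U74Av2 type, 6 arrays in all. One group was 3 wild type mice, and the other was 3 siblings lacking L1CAM, labelled male with genotype -/Y because the L1cam gene lies on the X chromosome. Both groups were of strain 129S2/SvPasCrlf, and the labels name no treatment, transgene or Cre driver and no sex for the wild type mice. Whole cerebellum holds many cell types, so in these values fewer Purkinje cells and less of a transcript per Purkinje cell cannot be told apart.

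In a Purkinje cell, glutamate released by parallel fibres activates the metabotropic receptor mGluR1, which through a Gq-type G protein switches on phospholipase C beta. That enzyme makes inositol trisphosphate, which opens calcium channels of the endoplasmic reticulum. Homer scaffolds tether the receptor to these channels, ryanodine receptors add calcium-triggered release, and pumps in the reticulum and the plasma membrane clear the calcium again. The pathway is needed for synaptic plasticity and motor coordination, and mice with mutations in several of its genes are ataxic.

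The tissue label was checked against marker genes. Because probe sets differ in sensitivity, the place of a probe set among all mean levels says only whether it gave a clear signal and ranks no cell type. The median percentile was 95.4 for 8 granule neuron markers, 89.8 for 9 of astrocytes and Bergmann glia, 84 for 9 of oligodendrocytes and 76.6 for 13 of Purkinje cells. Pcp2, a gene largely restricted to Purkinje cells in the cerebellum, gave a clear signal at percentile 98.8. The Pcp4 probe set was dim, at percentile 11.4, so it could hardly show a Purkinje signal. L1cam read lower in every knockout array than in any wild type array, with a difference of -0.60 (SE 0.10) on the log2 scale that did not pass the test over all probe sets (limma adjusted p = 0.841). Knockout 1 stood apart in a Y-linked gene and in RNA controls. Its Eif2s3y value was 7.11 against 8.59 to 8.998 elsewhere, which goes against the male label. The -/Y genotype of that array is then in doubt as well. The lowest wild type L1cam value was 8.48, in wild type 2. Knockout 1 read 8.25 for L1cam, the highest of the knockouts, against 8.01 in knockout 2 and 7.91 in knockout 3. Its 3' minus 5' difference for the Gapdh control was 0.67 against -0.05 to 0.13 elsewhere, and such a gap is larger in shorter RNA. Member differences and the split of all pathway genes by direction are therefore also given without the library labelled knockout 1. L1cam, the marker lists, the separate pathway lists and the single pathway genes are given with all arrays only.

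The comparison asks whether transcripts of the pathway differ in the cerebellum when L1CAM, an adhesion molecule of growing axons, is missing. None of the 7 member probe sets passed an adjusted p of 0.05, and 0% of all 12422 did. At an unadjusted p under 0.05 there were 0 of the 7, against 5.08% of all probe sets, and 0 of the 7 had groups that did not overlap, against 10.4%. The knockout mean lay below the wild type mean at all 7 probe sets, but so it did at 62.3% of all probe sets. After other scalings the 5 genes still had lower knockout means, while the share of all genes that did was 61.7% as deposited, 52.9% after quantile normalization, 52.8% after cyclic loess and 44.2% after median centring. With 1 probe set per gene, the median difference of the 5 genes was -0.078 on the log2 scale, beside -0.022 over 8251 genes. All 5 differences also stayed below 0 without knockout 1, with a median of -0.087.

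**Figure D1:**
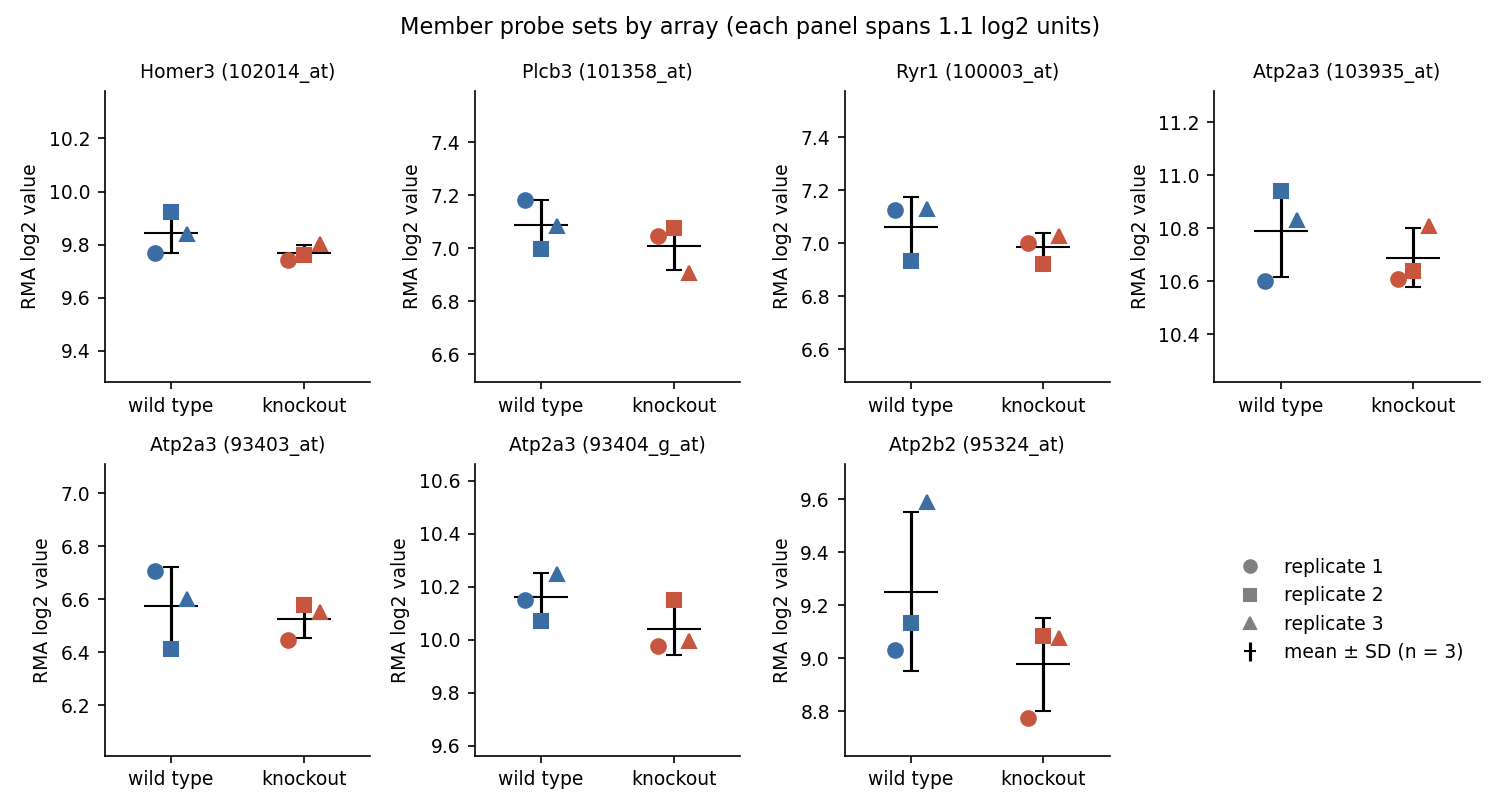
RMA log2 values (vertical axis) of the 7 member probe sets in 3 wild type (blue) and 3 knockout (red) arrays, with marker shape for the replicate number and bars for the mean ± SD. The groups overlap in every panel, and the widest spread is that of Atp2b2, from 8.77 in knockout 1 to 9.59 in wild type 3.

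Homer3 is the Homer scaffold found at high level in Purkinje cell spines, where it binds mGluR1 and the inositol trisphosphate receptor. Its log2 values were 9.77, 9.92 and 9.84 in wild type 1, 2 and 3, and 9.74, 9.76 and 9.80 in knockout 1, 2 and 3. The knockout arrays lay close together and 2 of them were below every wild type array, while knockout 3 was above wild type 1. The knockout mean was 9.77 ± 0.03 (SD, n = 3) and the wild type mean 9.84 ± 0.08 (SD, n = 3), a difference of -0.076 (SE 0.063, limma adjusted p = 0.932). The 95% interval, -0.22 to 0.064, spans levels from 1.16-fold lower to 1.05-fold higher in the knockouts, so it leaves room for modest changes only. The difference was -0.037 without wild type 2 and -0.062 without knockout 1. Homer2, another scaffold of the same family, differed by -0.082 and Homer1 by -0.014, and neither passed (limma adjusted p = 0.932 and 0.985). The Homer1 probe set lay at percentile 11.2 of mean level, where a fall would be hard to see.

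Plcb3 encodes a phospholipase C beta that Gq activates. In the cerebellum it is expressed in the Purkinje cell stripes that Plcb4 largely leaves out. Wild type 1, 2 and 3 read 7.184, 6.996 and 7.084, and knockout 1, 2 and 3 read 7.046, 7.076 and 6.907. Only knockout 3 lay below all wild type arrays, and wild type 2 was lower than the other 2 knockouts. The difference was -0.078 (SE 0.073, 95% interval -0.24 to 0.084, limma adjusted p = 0.932). It was -0.027 without knockout 3, -0.030 without wild type 1, -0.12 without wild type 2 and -0.097 without knockout 1. This probe set was dim, at percentile 17.4 of mean level. Plcb1, the phospholipase C beta of granule neurons and forebrain, differed by -0.028 at its brightest probe set, and its 3 probe sets ran from -0.088 to 0.030.

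Ryr1 is the ryanodine receptor of skeletal muscle, which Purkinje cells also express in their endoplasmic reticulum. Its values were 7.125, 6.934 and 7.129 in wild type 1, 2 and 3, and 7.001, 6.923 and 7.028 in knockout 1, 2 and 3. The knockout arrays lay between wild type 2 and the other 2 wild type arrays, except knockout 2, which was marginally below wild type 2. The difference was -0.078 (SE 0.072, 95% interval -0.24 to 0.081, limma adjusted p = 0.932), and the probe set was dim, at percentile 16.9 of mean level. The difference was -0.14 without wild type 2, -0.047 without wild type 1, -0.045 without wild type 3, -0.048 without knockout 2 and -0.087 without knockout 1. Skeletal and smooth muscle markers were measured beside it, since muscle left on the tissue would carry Ryr1. In knockout mean, 11 of 15 such markers were lower and 4 higher, while 61.7% of all genes were lower. Groups did not overlap at 3 of the 15, against 10.7% of all genes. An unadjusted limma p under 0.05 was found for 1 of the 15, against 5.22% of all genes. Their summed linear signal ran from 7340 to 7516 in wild type and from 6906 to 7601 in the knockouts.

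The other release channels gave values of a similar size, apart from Ryr2. Ryr3 differed by -0.083 and Itpr2, an inositol trisphosphate receptor common in glia, by -0.066, though the 4 probe sets of Itpr2 ran from -0.24 to 0.034. Ryr2, the cardiac ryanodine receptor that is also abundant in brain, differed by -0.31 (SE 0.18, limma adjusted p = 0.927). Its wild type arrays read 9.13, 9.20 and 9.94, and its knockout arrays 9.03, 9.02 and 9.27. Wild type 3 stood far above the other 5 arrays for Ryr2, and knockout 3 lay above the other 2 wild type arrays.

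Atp2a3 encodes SERCA3, a pump that returns calcium to the endoplasmic reticulum and is found in Purkinje cells as well as in endothelium and blood cells. At its brightest probe set, 103935_at, wild type 1, 2 and 3 read 10.60, 10.94 and 10.83, and knockout 1, 2 and 3 read 10.61, 10.64 and 10.81. Wild type 1 was the lowest of all 6 arrays, and no knockout array lay below it. The difference was -0.10 (SE 0.09, 95% interval -0.31 to 0.11, limma adjusted p = 0.932). It was -0.20 without wild type 1, -0.026 without wild type 2, -0.061 without knockout 1 and -0.16 without knockout 3, so its size depended on which arrays were included.

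The other Atp2a3 probe sets are both annotated to another sequence record than this one and gave further readings of the gene. Probe set 93404_g_at read 10.15, 10.07 and 10.25 in wild type and 9.976, 10.15 and 9.996 in the knockouts, a difference of -0.12 (SE 0.07, limma adjusted p = 0.927). It was -0.069 without wild type 3. Here knockout 1 and 3 lay below every wild type array and knockout 2 did not. Probe set 93403_at was dim, at percentile 10.7 of mean level, and differed by -0.048 (SE 0.081), which became 0.019 without wild type 1. The 3 probe sets did not order the arrays alike. Wild type 1 deviated from the 6-array mean by -0.14, 0.16 and 0.047 at 103935_at, 93403_at and 93404_g_at, and knockout 1 by -0.13, -0.10 and -0.12. Wild type 3 deviated by 0.088, 0.050 and 0.15. At all 3 probe sets knockout 1 was thus below and wild type 3 above the mean, while the other arrays varied in sign or size. Without knockout 1 the differences were -0.061 at 103935_at, -0.008 at 93403_at and -0.084 at 93404_g_at.

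Endothelial and blood markers were set beside Atp2a3 because these cells carry it. The 9 endothelial markers had a median difference of -0.005, and their summed linear signal overlapped between the groups. In knockout mean, 3 of the 5 blood markers were higher and 2 lower, with a median difference of 0.14. Of the 5, 2 had an unadjusted limma p under 0.05, against 5.22% of all genes. Groups did not overlap at 1 of the 5, against 10.7% of all genes. Their summed linear signal, in which the brightest markers weigh most, did not overlap, with 29410 to 33460 in wild type and 34910 to 39420 in the knockouts. No blood marker passed the adjusted threshold, and neither did any other probe set. The Atp2a3 probe sets had lower knockout means, and the part of blood in their values was not tested. Among other SERCA pumps, Atp2a2, the widely expressed form, differed by -0.027 and Atp2a1, the fast muscle form, by -0.059.

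Atp2b2 encodes PMCA2, the plasma membrane pump that exports calcium from Purkinje cells and their spines and that is mutated in the deaf and ataxic deafwaddler mouse. It had the largest difference of the 5 genes. Its values were 9.03, 9.13 and 9.59 in wild type 1, 2 and 3, and 8.77, 9.08 and 9.08 in knockout 1, 2 and 3. The groups overlapped: knockout 2 and 3 lay between wild type 1 and 2, while knockout 1 was the lowest array and wild type 3 the highest by a wide margin. The wild type mean was 9.25 ± 0.30 (SD, n = 3) and the knockout mean 8.98 ± 0.18 (SD, n = 3).

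The Atp2b2 difference was -0.27 (SE 0.14, 95% interval -0.58 to 0.033), or 1.21-fold lower, and it did not pass (limma adjusted p = 0.922, unadjusted p = 0.0752). The 2-sided exact permutation p was 0.3, where 3 arrays against 3 cannot go below 0.1. The interval reaches from 1.49-fold lower to 1.02-fold higher, so a sizeable reduction could not be told from no change with these arrays. Leaving out wild type 3 gave -0.10 and leaving out knockout 1 gave -0.17, and the other single omissions gave -0.32 to -0.38. No other plasma membrane pump gene of the pathway list was analysed here.

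**Figure D2:**
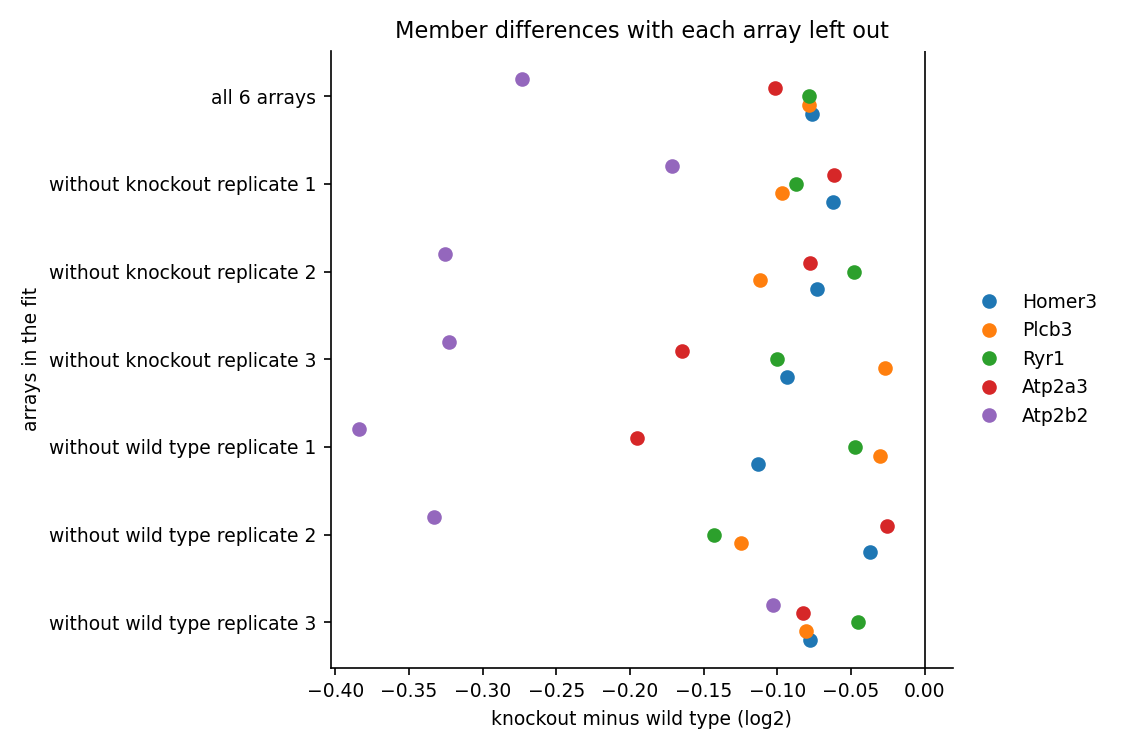
Knockout minus wild type difference (horizontal axis, log2) of each member gene with all 6 arrays and with each array left out in turn. Every point lies below 0, and Atp2b2 moves most, from -0.38 without wild type 1 to -0.10 without wild type 3.

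Wild type 3 and knockout 1 marked the extremes of the 5 genes as a set. Each gene's values were centred on its mean over the 6 arrays and averaged over the genes. Wild type 1, 2 and 3 stood at -0.004, 0.039 and 0.15, and knockout 1, 2 and 3 at -0.11, -0.050 and -0.021. In wild type 3 all 5 genes were above their own mean, and in knockout 1 all 5 were below it. On this mean the highest knockout array lay just under the lowest wild type array, but by the median of the 5 genes the groups overlapped, with wild type 1 at -0.036 and knockout 3 at -0.004. In wild type 3 the mean was 0.15 and the median 0.088, and Atp2b2 lay furthest above its own mean there. The span of the wild type arrays in this mean was wider than the difference of -0.12 between the groups, which was given no test because the genes were chosen with results known.

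Of all the cell type marker lists examined, only the markers of oligodendrocytes had the same highest and lowest arrays, but not the same order in between. The median deviation of 9 such markers was 0.17 in wild type 3 and -0.24 in knockout 1, and stood at -0.075 and -0.023 in wild type 1 and 2 and at -0.001 and 0.068 in knockout 2 and 3. In knockout mean, 8 of these 9 were lower and 1 higher, while 61.7% of all genes were lower. Their median difference was -0.12, and their summed linear signal ran from 24960 to 30120 in wild type and from 21960 to 27580 in the knockouts. The Gapdh gap was also at its extremes in these arrays, with -0.048 in wild type 3 and 0.67 in knockout 1. Purkinje markers did not follow as closely: their median deviation was -0.12, 0.062 and 0.050 in wild type 1, 2 and 3, and -0.085, 0.008 and 0.035 in knockout 1, 2 and 3. The part of oligodendrocytes and of RNA quality in the member differences was not tested.

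**Figure D3:**
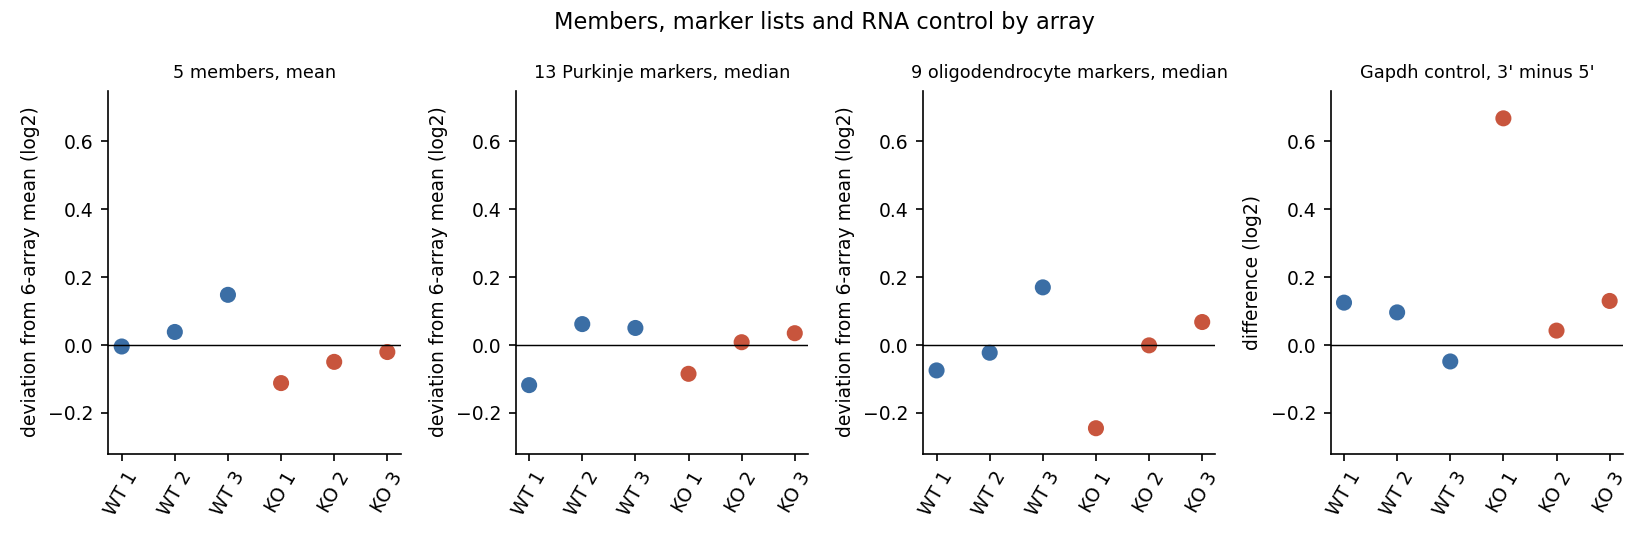
Deviation from the 6-array mean (log2) of the 5 member genes, of 13 Purkinje markers and of 9 oligodendrocyte markers, and the Gapdh 3' minus 5' difference (log2), for wild type (WT, blue) and knockout (KO, red) arrays. Wild type 3 is the highest and knockout 1 the lowest array for the members (0.15 and -0.11) and the oligodendrocyte markers (0.17 and -0.24). The Gapdh difference is lowest in wild type 3 and highest in knockout 1, and the arrays between them are not in reversed order.

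The members did not all vary together. The closest profiles were those of Homer3 and Atp2a3, with a root-mean-square difference of 0.075 log2 over the 6 arrays after centring. Plcb3 and Ryr1 followed at 0.087, and the widest gap was 0.25, between Plcb3 and Atp2b2. Atp2b2 was the most distant from each of the others and also had the widest range. Among 5369 other probe sets with a single symbol and at least as much spread, those nearest to the mean profile of the members were St6galnac4, a sialyltransferase gene, at a root-mean-square difference of 0.023, and Krt19, a keratin gene, at 0.024. They were followed by Zfp292, a zinc finger gene, at 2 probe sets (both 0.024) and Scn8a, a sodium channel of Purkinje and other neurons, at 0.026. This likeness is a description over 6 arrays that all these probe sets share.

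The family relatives and the rest of the pathway set the members in context. Of 113 other listed genes 75 were measured, and none passed in either direction (smallest limma adjusted p 0.922). In knockout mean 25 were higher and 50 lower, or 66.7% lower against 61.7% of all genes, with a median of -0.028 beside -0.022. The split was 27 higher and 48 lower after quantile normalization and 28 and 47 after cyclic loess, but 38 and 37 after median centring, where 44.2% of all genes were lower. Without knockout 1 it was 37 and 38, where 60.7% of all genes were lower. At an unadjusted p under 0.05 there were 3 of the 75 (4%, against 5.22% of all genes), and 5 had groups that did not overlap (6.67%, against 10.7%). Of the 75 genes, 6 also stand in a marker list.

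**Figure D4:**
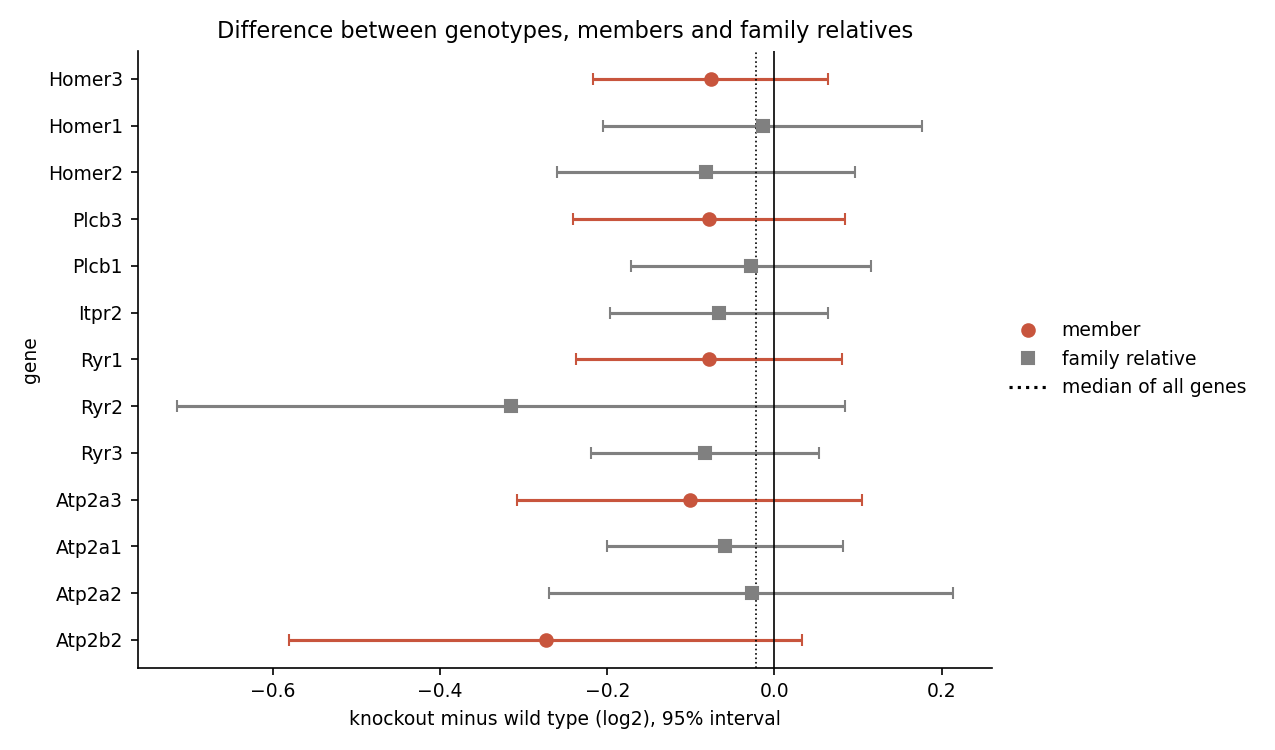
Knockout minus wild type difference (horizontal axis, log2) with its 95% interval for the 5 member genes (circles) and 8 relatives of the same gene families (squares); the dotted line is the median of all genes, -0.022. Every interval includes 0, and the widest are those of Ryr2 and Atp2b2.

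Upstream of the phospholipase, 9 receptor, G protein and scaffold genes were measured, 3 higher and 6 lower in mean, with a median of -0.026. Median centring brought that median to 0.006. Gna11, a Gq-type alpha subunit, had the smallest unadjusted p of this list at a difference of 0.071, and Homer2 was next. Another Gna11 probe set differed by -0.018. Of 17 genes of phospholipase C and inositol lipid turnover, 5 were higher and 12 lower in mean (median -0.040). Pip4k2a, a phosphoinositide kinase, differed by -0.11 and Plcg1, a phospholipase C coupled to tyrosine kinases, by -0.098. All 9 and all 17 had overlapping groups.

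Among 11 release channels and their partners, 3 were higher and 8 lower in mean, with a median of -0.066. Ryr2 and Sri, the ryanodine receptor regulator sorcin, had the smallest unadjusted p. Sri read 11.03, 11.26 and 11.07 in wild type and 10.98, 11.01 and 11.03 in the knockouts, a difference of -0.11 (SE 0.07, limma adjusted p = 0.927). Its groups did not overlap, but only just. In this list 2 of the 11 genes had groups that did not overlap (18.2%, against 10.7% of all genes), and the other was higher in the knockouts. The list of other pumps and exchangers held 5 measured genes, among them a SERCA inhibitor. At their brightest probe sets all 5 had lower knockout means as deposited, from -0.085 to -0.015, and 2 of the 5 were higher after median centring. Other probe sets differed in sign, with 0.085 for the sodium-calcium exchanger Slc8a1 and 0.045 for the Golgi pump Atp2c1. Sln, the SERCA inhibitor sarcolipin, stood at -0.085 and Atp2a1 at -0.059.

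Calcium entry channels held 12 measured genes, 3 higher and 9 lower in mean, with a median of -0.037. Cacna2d1, an accessory subunit of voltage-gated channels, read 7.83, 7.90 and 8.09 in wild type and 7.70, 7.77 and 7.69 in the knockouts. Its groups did not overlap, and the difference was -0.22 (SE 0.08, unadjusted p = 0.0151, limma adjusted p = 0.922). Cacna1g, the T-type channel of Purkinje dendrites, differed by -0.23 (SE 0.12, limma adjusted p = 0.922). Its wild type arrays read 9.07, 9.43 and 9.52 and its knockout arrays 8.97, 9.09 and 9.27, again with knockout 1 lowest and wild type 3 highest.

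Calcium buffers and sensors were split nearly evenly, with 11 of 21 genes higher and 10 lower in mean and a median of 0.005. The pair with the smallest unadjusted p encode calcium-binding proteins of the secretory pathway. Rcn1 differed by 0.28 (SE 0.10, unadjusted p = 0.0216) and Calu by 0.15 (SE 0.06, unadjusted p = 0.0411), and neither passed (limma adjusted p = 0.922 for both). Rcn1 read 9.32, 9.11 and 9.12 in wild type and 9.70, 9.29 and 9.41 in the knockouts, with wild type 1 above knockout 2. Calu read 9.28, 9.34 and 9.44 against 9.48, 9.48 and 9.54 and did not overlap, but another Calu probe set differed by -0.087. Calb1 and Pvalb, the main cytosolic buffers of Purkinje cells, differed by 0.060 and -0.15, and another Pvalb probe set differed by -0.060.

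**Figure D5:**
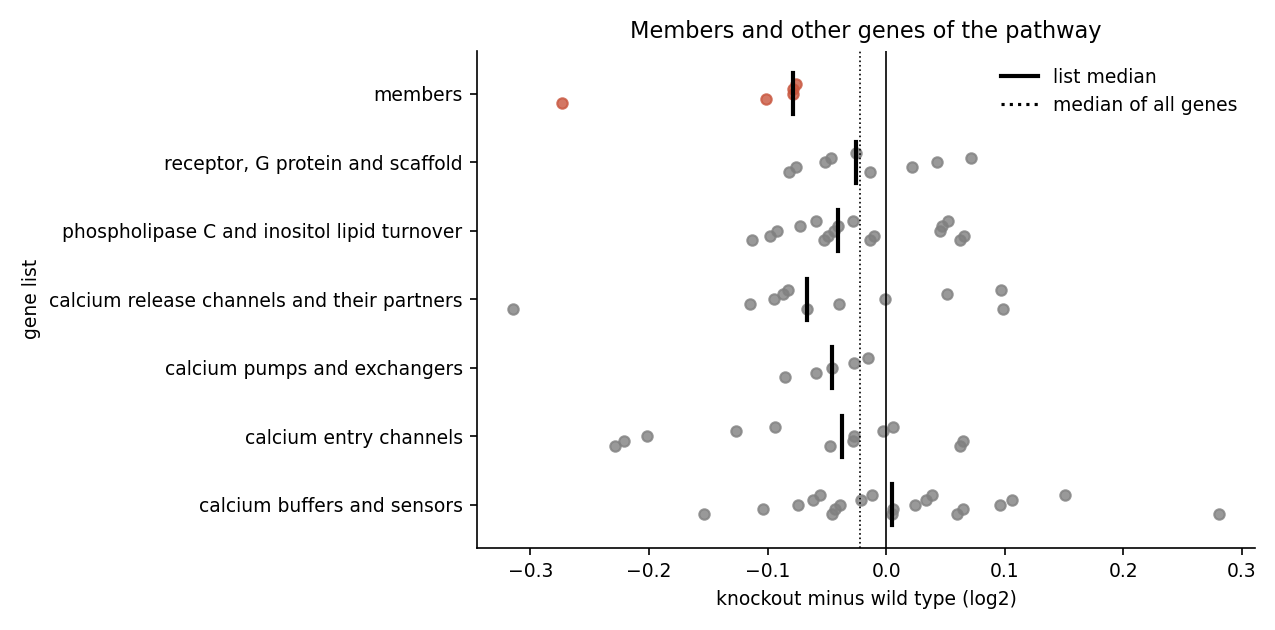
Knockout minus wild type difference (horizontal axis, log2) of each measured gene in the member set and in 6 pathway lists, 1 point per gene, with a bar at each list's median and a dotted line at the median of all genes. The list medians run from -0.066 for release channels to 0.005 for buffers and sensors, and the member median is -0.078.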

How the data were processed

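The deposited values are log2 expression values, which the authors made with RMA, per the submitters' processing notes. RMA corrects background, normalizes between arrays and summarises each probe set, so a change in total RNA per cell cannot be read from them, and a level is not compared between probe sets. No source used here names its version. With no genome build named either, no coordinates are printed. Of 12488 probe sets, 66 controls were left out of the test.

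Genotype was fitted to all 12422 others with limma 3.58.1 in R 4.3.3 (lmFit and eBayes, 2-sided, Benjamini-Hochberg, threshold 0.05), after a test on simulated data. Arrays have no read depth, and their number limits the precision. Per the design text each group held 3 mice, so 1 array was taken as 1 mouse. A gene is read from its probe set with the highest mean. Within each pathway list the 2 genes with the smallest unadjusted p were named. Family relatives, Calb1 and Pvalb were named for what they are. The members and lists were chosen with earlier results of these data known. Alternatives covered scaling, filtering, variance, weights, replicate block, single omissions, averaging of a gene's probe sets and the threshold.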

Additional observations from a re-analysis of the deposited data

Results flagged for a closer look

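The Gapdh and Actb control probe sets, which were left out of the genotype test, showed a wider 3' minus 5' difference in knockout 1 and 3 than in all 3 wild type arrays. For Gapdh it was 0.668 in knockout 1 and 0.13 in knockout 3, against -0.05 to 0.12 in wild type. For Actb it was 1.09 in knockout 1 and 0.95 in knockout 3, against at most 0.93. The knockout 3 values exceed the wild type values by little. For pyruvate carboxylase, the remaining control examined, knockout 1 read 0.879 and knockout 3 read 0.646, against 0.851 in wild type 1.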

How the results depend on the processing

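No member probe set and none of the 75 pathway genes passed under any of 15 other settings. The count over all probe sets was 0 in 13 of the 14 settings it was run in, and over single omissions it ran from 0 to 1, with 1 without knockout 3. Deviations of same-numbered arrays correlated at 0.16, -0.32 and 0.17. Without the same values for different-numbered arrays, these cannot show whether the replicate numbers pair the arrays. The smallest limma adjusted p over all probe sets was 0.196 with the replicate block and 0.841 in the main fit. With the replicate block 0 member probe sets passed, the Atp2b2 difference was -0.27 (limma adjusted p = 0.775) and the members' median -0.078. The unadjusted limma p of Atp2b2 depended on the setting and was under 0.05 in 3 of 14. It was 0.0117 with the replicate block, 0.0221 with array weights and 0.022 without wild type 1, but 0.341 without wild type 3. The smallest adjusted p of Atp2b2 over these settings was 0.497. Of 93 recomputed member differences 1 changed sign, for Atp2a3 at probe set 93403_at, which ran from -0.13 to 0.019 over single omissions, the latter without wild type 1. The members' median ran from -0.12 to -0.078 over single omissions and was -0.047 after median centring. The filter on mean level removed Plcb3, Ryr1 and that Atp2a3 probe set. The higher share of probe sets at an unadjusted p under 0.05 depended on scaling: 48.3% with the deposited values, 66% with quantile normalization, 66.3% with cyclic loess and 79.1% with median centring.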
